A study of Mus musculus with 7 samples.

Results

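The kinases Mertk, Axl and Tyro3 (together TAM), their ligands Gas6 and Pros1, the bridging protein Mfge8, the receptors Megf10 and Timd4 and the adaptor Elmo1 were followed in microglia of young and old mice after stroke. These 9 genes were chosen by symbol alone, with no measured value in the rule, out of the 50686 genes in the tables. The microglia came from the forebrain of C57BL/6 male mice 4 days after induction of brain ischemia, and were sorted by FACS after staining for CD11b, CD45 and Bodipy, a dye of neutral lipid. The 4 young mice were 3 to 4 months old (14C, 18C, 23C and 29C) and the 3 old mice were 21 to 22 months old (2posI, 3posI and 4posI). All were ischemic, and no drug to deplete microglia is named for them. The surgery described in the paper used isoflurane for anesthesia and buprenorphine for analgesia. The comparison was thus of age within ischemia, and cells without Bodipy or from non-ischemic mice are not analysed here. Each library had 1 code from the labels, which name no litter, batch or pairing. The tests set an age difference against the spread between these libraries.

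A dying cell exposes phosphatidylserine on its outer membrane. Gas6 and protein S, the product of Pros1, hold this lipid through a domain that needs vitamin K-dependent carboxylation, and with their other end they switch on TAM kinases on the phagocyte. Mfge8 links the same lipid to integrins, Tim-4 (the product of Timd4) binds it directly, and Elmo1 acts with Dock proteins to activate Rac and move the membrane around the corpse. In the brain, Mertk and Axl are the TAM kinases known from microglia, Tyro3 is best known from neurons, Megf10 from astrocytes and Timd4 from resident macrophages at the borders of the brain.

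The TAM ligands and the TAM receptors Mertk and Axl together held most of the RNA of this set, and the starts of these 4 genes are shown. The adaptor Elmo1 had a higher mean level than Mertk or Axl, and its starts are not shown, so level alone did not set this choice. Each window runs from 250 bases before to 50 bases after the RefSeq start (GRCm38.p6, 5′ to 3′ on the strand of the gene). Capitals mark the GC box (GGGCGG), the PU.1 core (GAGGAA), a STAT half-site pair (TTCNNNGAA) or the TATA box (TATAAA), searched on both strands, with GC boxes allowed to overlap each other.
Mertk, chr2:128698665-128698964, plus strand: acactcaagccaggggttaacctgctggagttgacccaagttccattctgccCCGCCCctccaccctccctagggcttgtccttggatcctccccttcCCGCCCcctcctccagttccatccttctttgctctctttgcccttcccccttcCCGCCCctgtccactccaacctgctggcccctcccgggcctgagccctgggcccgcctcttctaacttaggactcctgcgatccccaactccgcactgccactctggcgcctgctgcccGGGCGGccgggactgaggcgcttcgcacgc
Axl, chr7:25788684-25788983, minus strand: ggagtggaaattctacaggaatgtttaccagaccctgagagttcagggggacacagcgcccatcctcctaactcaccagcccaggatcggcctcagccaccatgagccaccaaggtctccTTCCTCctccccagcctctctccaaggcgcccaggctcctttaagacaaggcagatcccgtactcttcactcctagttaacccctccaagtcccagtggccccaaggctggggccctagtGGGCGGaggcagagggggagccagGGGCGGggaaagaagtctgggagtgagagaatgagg
Gas6, chr8:13494486-13494785, minus strand: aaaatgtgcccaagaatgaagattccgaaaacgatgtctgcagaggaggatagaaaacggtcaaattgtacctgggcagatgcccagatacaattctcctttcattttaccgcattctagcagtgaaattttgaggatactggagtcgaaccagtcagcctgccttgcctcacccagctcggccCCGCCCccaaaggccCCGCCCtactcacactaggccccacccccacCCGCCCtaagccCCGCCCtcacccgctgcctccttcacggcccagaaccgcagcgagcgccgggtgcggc
Pros1, chr16:62854057-62854356, plus strand: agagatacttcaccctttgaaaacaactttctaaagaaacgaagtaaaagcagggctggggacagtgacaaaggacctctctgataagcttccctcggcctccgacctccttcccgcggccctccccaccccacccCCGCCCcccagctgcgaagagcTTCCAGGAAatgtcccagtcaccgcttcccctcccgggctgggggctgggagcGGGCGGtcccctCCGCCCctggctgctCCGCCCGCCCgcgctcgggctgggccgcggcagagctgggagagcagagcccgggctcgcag
The Mertk window held 4 GC boxes, the Gas6 window 4, the Pros1 window 5 and the Axl window 2. A GC box was found in 35.7% of the 32851 windows of the same length in the table. The Axl window was the only one of these 4 with a PU.1 core (28.3% of all windows), and the Pros1 window the only one with a STAT half-site pair (8.3% of all windows). None of the 4 held a TATA box (13.6% of all windows). These matches are letters in a window. Binding was not measured here.

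The level of the 9 genes differed by over 3 orders of magnitude within these cells. On the TPM scale, which corrects for gene length and library size, the mean over 7 libraries was highest for Gas6 at 285 TPM. Pros1 followed at 142 TPM, Elmo1 at 82.6 TPM, Mertk at 78.2 TPM, Axl at 73.2 TPM and Mfge8 at 31.0 TPM. Timd4 (0.496 TPM), Tyro3 (0.146 TPM) and Megf10 (0.0471 TPM) were close to the limit of counting. Gas6 was above Pros1 in 7 of 7 libraries, and their ranges did not overlap (201 to 465 against 54.7 to 179 TPM). Pros1 was above Elmo1 in 7 of 7 libraries, with overlapping ranges across libraries. Elmo1, Mertk and Axl were neighbours without separation. Elmo1 exceeded Mertk in 6 of 7 libraries and Mertk exceeded Axl in 5 of 7, and all 3 ranges overlapped. Axl stood apart from Mfge8, and Mfge8 from Timd4, in every library. The order of the lowest 3 rested on counts between 1 and 66 per library, and their ranges overlapped from each gene to the next.

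**Figure D1:**
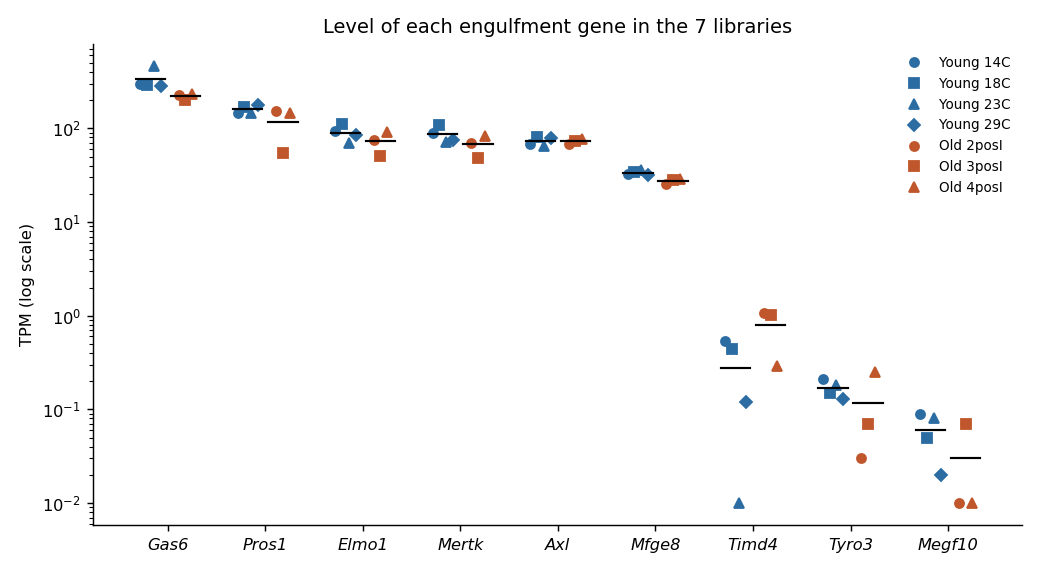
TPM of each of the 9 genes (log axis) in each library, with blue marks for the 4 young mice, orange marks for the 3 old mice and a black line at the mean of each age. Gas6, Pros1, Elmo1, Mertk, Axl and Mfge8 lie between 25.7 and 465 TPM, while Timd4, Tyro3 and Megf10 lie between 0.01 and 1.06 TPM.

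None of the 9 genes passed the age test. All 9 were tested and exceeded 10 counts in at least 1 library of each age. In edgeR's quasi-likelihood test over 17559 genes, 0 of 9 had an adjusted p under 0.05, where 0.968% of all tested genes were called. Limma-voom (0.814% of all genes called) and DESeq2 (7.97%) also called 0 of 9. At an unadjusted p under 0.05, edgeR had 1 of 9, Gas6, against 18.9% of all tested genes. The sign was negative, toward lower values in old mice, for 7 of 9 genes, against 51.2% of all tested genes, and positive for Axl and Timd4. In CPM, the library-scaled read counts after TMM factors, the ages did not overlap for 3 of 9 genes, Tyro3, Gas6 and Mfge8, all lower in old mice. Over all tested genes the ages did not overlap for 17.7%, and with the old libraries below the young for 9.07%. In TPM, Gas6 and Mfge8 remained apart by age and Tyro3 did not, against 17.5% of all tested genes in either direction and 11.2% with old below young. In bulk RNA of sorted cells, fewer cells that express a gene and less RNA per cell cannot be told apart.

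**Figure D2:**
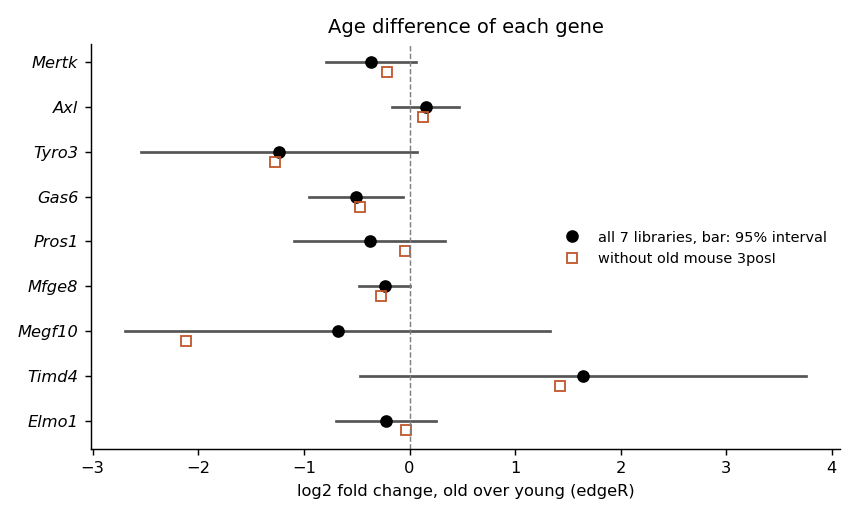
Log2 fold change of old over young for each gene from edgeR (black points, with bars for the 95% confidence interval) and the same without old mouse 3posI (open orange squares). The interval of Gas6, from −0.96 to −0.07, is the only one of the 9 that leaves out 0 before adjustment, and without 3posI Pros1 and Elmo1 lie at −0.04 and −0.03.

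Mertk, the kinase most closely tied to clearance of corpses by macrophages, lies on chromosome 2 (128698956 to 128802894, plus strand, GRCm38, a protein-coding gene). Its level in young mice was 269 CPM in 14C, 324 in 18C, 216 in 23C and 244 in 29C. In old mice it was 213 CPM in 2posI, 161 in 3posI and 239.9 in 4posI. The ages overlapped, with 4posI inside the young range and 3posI below all other libraries. The means were 263 ± 46.0 CPM (young, SD, n = 4) and 205 ± 40.0 CPM (old, SD, n = 3). The log2 fold change was −0.36 (SE 0.19, 95% interval −0.79 to 0.06, edgeR adjusted p = 0.335), and −0.22 without 3posI. Its interval therefore held everything from a 0.579-fold level in old mice to a 1.04-fold level. The deposited effective length of Mertk was 3751 to 4193 bases in old and 4244 to 4250 bases in young libraries. An edgeR fit with these lengths as an offset gave a log2 fold change of −0.26 (adjusted p = 0.509).

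Axl, the TAM kinase known to be induced in activated microglia, lies on chromosome 7 (25757273 to 25788705, minus strand). Young mice had 195 CPM in 14C, 200.2 in 18C, 176 in 23C and 249 in 29C. Old mice had 231 CPM in 2posI, 235 in 3posI and 219 in 4posI. The 3 old libraries lay close together and inside the young range, below 29C and above the other young libraries. For Axl, the log2 fold change was 0.15 (SE 0.14, 95% interval −0.17 to 0.47, edgeR adjusted p = 0.594). On the TPM scale, the means were 73.3 ± 7.81 (SD, n = 4) and 73.1 ± 4.77 TPM (SD, n = 3), and the exact permutation p was 1 (two-sided). Axl was the TAM gene with the narrowest interval, and a fold in old mice below 0.89 or above 1.39 lay outside it.

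Tyro3, the third kinase of the family, lies on chromosome 2 (119797733 to 119818104, plus strand) and was barely counted. Young mice had 27 reads in 14C, 16 in 18C, 26 in 23C and 18 in 29C. Old mice had 3 reads in 2posI, 8 in 3posI and 13 in 4posI. On the CPM scale the young mean was 0.460 ± 0.106 (SD, n = 4) and the old mean 0.192 ± 0.0963 (SD, n = 3), and the old libraries lay below all the young. Tyro3 had a log2 fold change of −1.24 (SE 0.58, 95% interval −2.54 to 0.07, edgeR adjusted p = 0.291). The TPM values did not keep this order. 4posI had the highest value of all libraries at 0.25 TPM, and its deposited effective length was 1610 bases against 3480 to 3940 in the other libraries. With the effective lengths as an offset in edgeR, the log2 fold change was −0.56 (adjusted p = 0.714).

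The 3 kinases can also be set against each other within a library, where the scaling of the library cancels. Of the summed TPM of the TAM receptors, Mertk made up 56.4% in 14C, 57.7% in 18C, 52.4% in 23C and 48.5% in 29C. In the old libraries its share was 50.5% in 2posI, 39.8% in 3posI and 51.8% in 4posI. Axl made up nearly all of the rest, and Tyro3 at most 0.155% in any library. Mertk was thus the larger share in 3 of 4 young and 2 of 3 old libraries. The ratio of Axl to Mertk was 0.731 to 1.06 in young mice, 0.981 in 2posI, 1.51 in 3posI and 0.929 in 4posI. The mean log2 ratio was −0.22 ± 0.24 among young libraries (SD, n = 4) and 0.15 ± 0.38 among old libraries (SD, n = 3). The difference was 0.37, with an exact two-sided permutation p of 0.2 (0.4 after Benjamini-Hochberg adjustment over 4 ratios). The ages overlapped, and the smallest p that 3 against 4 libraries allow is 0.0286. The size of this difference depended on 3posI, without which it was 0.15 (exact p = 0.467), and on the scale, since the same ratio in CPM differed by 0.53 (exact p = 0.0857). The ratio of Tyro3 to Mertk differed by −0.66 on the log2 scale (exact p = 0.514, adjusted 0.686). That value rested on single libraries, at 0.10 without 2posI and −1.30 without 4posI, and in CPM it was −1.02 (exact p = 0.114).

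Gas6 encodes the ligand that binds all the TAM kinases, and it had the smallest p of the 9 genes. It lies on chromosome 8 (13465374 to 13494490, minus strand) and shares 34 exonic bases with Tmem255b on the other strand. In these non-stranded libraries a read from those bases does not show its strand. The expected counts of Gas6 were whole in all 7 libraries, so no fraction of a read was shared with another gene. In young mice its level was 536 CPM in 14C, 507 in 18C, 823 in 23C and 538 in 29C. In old mice its level was 462 CPM in 2posI, 396 in 3posI and 408 in 4posI. All old libraries lay below all young libraries, and 23C stood far above the other young mice. The means were 601 ± 148 CPM (SD, n = 4) and 422 ± 35.7 CPM (SD, n = 3). Gas6 had a log2 fold change of −0.51 (SE 0.20, 95% interval −0.96 to −0.07), with an edgeR p of 0.0290 before and 0.211 after adjustment over all genes. In TPM, Gas6 averaged 334 ± 87.3 (young, SD, n = 4) and 220.0 ± 16.8 (old, SD, n = 3), with an exact permutation p of 0.0571.

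The young mouse 23C also had the highest sum of the 8 pericyte and fibroblast markers, at 254 CPM against 28.3 to 59.8 in the other young and 12.2 to 39.6 in the old libraries. Of these markers, Col3a1 and Higd1b were at 0 in some library. Without 23C the log2 fold change of Gas6 was −0.32 (edgeR adjusted p = 0.272). The sum of the 8 endothelial markers, all counted in every library, was 257 to 330 CPM in young and 164 to 231 CPM in old libraries. Slc2a1, a glucose transporter gene, held the largest part of this sum (155 to 204 CPM in young, 85.8 to 144 CPM in old libraries). Without Slc2a1, a sum added after seeing the data, the ages overlapped (82.3 to 145 against 60.8 to 87.7 CPM), with the old library 3posI above the young library 18C. Of the 8 markers, 4 lay lower in all old libraries (Slc2a1, Pecam1, Itm2a and Ly6c1) and 4 overlapped, and Kdr was highest in the old library 3posI at 17.4 CPM. The part of these cells in the Gas6 values was not tested.

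Pros1 encodes protein S, the other TAM ligand, which acts through Mertk and Tyro3. It lies on chromosome 16 (62854307 to 62929346, plus strand). Young mice had 344 CPM in 14C, 384 in 18C, 332 in 23C and 439 in 29C. Old mice had 402 CPM in 2posI, 140.2 in 3posI and 325 in 4posI. Most of the spread came from 3posI, which held 0.386 times the mean of the other old libraries, while 2posI lay inside the young range and 4posI just below it. Over all 7 libraries, the log2 fold change was −0.38 (SE 0.31, 95% interval −1.09 to 0.34, edgeR adjusted p = 0.551). Without 3posI it was −0.04 (adjusted p = 0.924).

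Gas6 exceeded Pros1 in TPM by 1.57 to 3.23 times in young and by 1.49 to 3.67 times in old libraries. The mean log2 ratio was 1.04 in both ages, and the difference was 0.01 with an exact permutation p of 0.943. The sum of both ligands stood above the sum of the 3 receptors in every library, by 2.43 to 4.44 times in young and by 2.09 to 2.75 times in old mice. The log2 difference of this ratio was −0.38 (exact permutation p = 0.143, adjusted 0.4), and the ages overlapped. Without 23C it was −0.21 (exact p = 0.2).

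**Figure D3:**
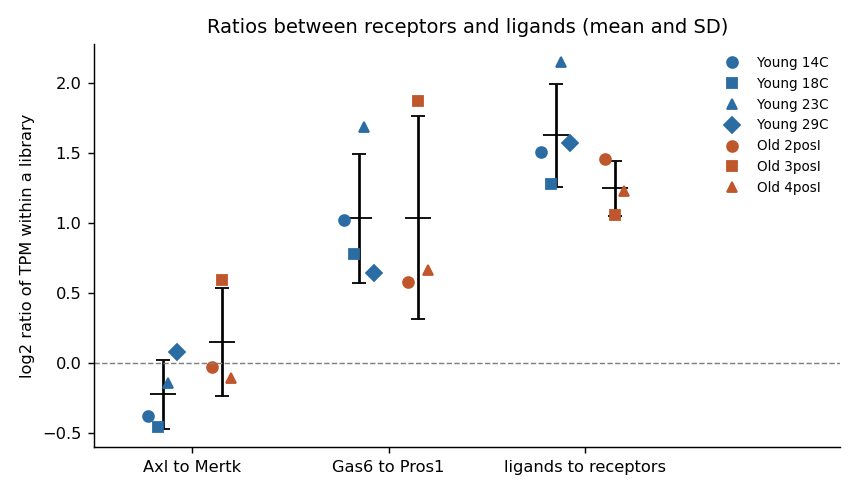
Log2 ratio of TPM within each library for Axl to Mertk, Gas6 to Pros1 and both ligands to the 3 receptors, with blue marks for young mice, orange marks for old mice and black bars for the mean and SD of each age. The ages overlap in all 3 ratios, and 3posI has the highest Axl to Mertk ratio (1.51) and the highest Gas6 to Pros1 ratio (3.67).

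Mfge8 encodes the secreted bridge between phosphatidylserine and integrins (chromosome 7, 79133768 to 79149060, minus strand). It had 41.9 CPM in 14C, 44.5 in 18C, 48.2 in 23C and 44.2 in 29C. In old mice it had 38.1 CPM in 2posI, 39.8 in 3posI and 36.0 in 4posI. The old libraries lay below all the young by a small step. The means were 44.7 ± 2.61 CPM (SD, n = 4) against 38.0 ± 1.94 CPM (SD, n = 3). Between the ages the log2 fold change was −0.24 (SE 0.11, 95% interval −0.48 to 0.00), with an edgeR p of 0.0516 before and 0.268 after adjustment. In TPM it was 33.6 ± 1.77 (SD, n = 4) against 27.6 ± 1.69 (SD, n = 3). The exact permutation p of 0.0286 is the smallest this design allows, and limma on log2(TPM + 1), which called 0.364% of all genes, gave an adjusted p of 0.203.

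Timd4, whose product Tim-4 binds phosphatidylserine on the macrophage surface, lies on chromosome 11 (46810800 to 46844332, plus strand). Young mice had 38 reads in 14C, 29 in 18C, 1 in 23C and 9 in 29C. Old mice had 62 reads in 2posI, 66 in 3posI and 20 in 4posI. The old libraries 2posI and 3posI were the highest of the 7, and 4posI lay inside the young range. For Timd4, the log2 fold change was 1.64 (SE 0.93, 95% interval −0.47 to 3.76, edgeR adjusted p = 0.375), so a lower as well as a much higher level in old mice lay inside the interval. The 3 libraries with the highest Timd4 CPM, 2posI (1.85 CPM), 3posI (1.69 CPM) and 14C (0.823 CPM), were also the 3 with the highest sum of the 9 markers of border-associated macrophages (498, 1249 and 432 CPM). The order did not match beyond this. The marker sum was higher in 3posI than in 2posI, while Timd4 was lower. F13a1 (500 against 111 CPM) and Pf4 (315 against 64.8 CPM) weighed most in that excess. Clec4n, Cbr2, Lyve1 and Folr2 were also higher in 3posI, while Cd163, Mrc1 and Cd209f were higher in 2posI. Library 23C, with the fourth-highest sum (300 CPM), had the lowest Timd4 (0.0196 CPM). The part of these cells in the Timd4 values was not tested.

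Megf10, an engulfment receptor best known from astrocytes, lies on chromosome 18 (57133090 to 57297467, plus strand) and had the lowest level of the set. Young mice had 23 reads in 14C, 8 in 18C, 18 in 23C and 6 in 29C. Old mice had 3 reads in 2posI, 16 in 3posI and 2 in 4posI. The log2 fold change was −0.68 (SE 0.89, 95% interval −2.69 to 1.33, edgeR adjusted p = 0.720), and no age difference was detected with these low counts. Without 3posI the log2 fold change was −2.12 (adjusted p = 0.313). The 9 astrocyte markers, all counted in every library, summed to 115 to 160 CPM in young and 79.0 to 216 CPM in old libraries. The highest sum was in 2posI, where Megf10 had 3 reads. Slc1a3 alone weighed heavily in this sum, with 47.7 to 102 CPM in young and 29.8 to 93.1 CPM in old libraries. The part of astrocytes in the Megf10 values was not tested.

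Elmo1 encodes the adaptor that joins Dock proteins to activate Rac beneath the receptors (chromosome 13, 20090596 to 20608353, plus strand). It shares 403 exonic bases with the antisense gene Gm32036, where a read does not show its strand. The expected counts of Elmo1 were whole in all 7 libraries, so no fraction of a read was shared with another gene. Young mice had 239 CPM in 14C, 273 in 18C, 174 in 23C and 229 in 29C. Old mice had 217 CPM in 2posI, 141 in 3posI and 229 in 4posI. The ages overlapped, and 3posI lay below all other libraries. The log2 fold change was −0.22 (SE 0.21, 95% interval −0.70 to 0.25, edgeR adjusted p = 0.598), and −0.03 without 3posI.

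The old library 3posI had the lowest value of all 7 for 4 of the 9 genes, Mertk, Gas6, Pros1 and Elmo1. It held 0.712 times the Mertk, 0.909 times the Gas6 and 0.634 times the Elmo1 of the other old libraries on average, but 1.04 times the Axl and 1.08 times the Mfge8. In the same library, the sum of the 10 microglia markers was 11176 CPM against 21747 to 32406 CPM in the other 6, with all 10 counted in each. Its 9 markers of infiltrating monocytes summed to 2152 CPM against 20.2 to 122 CPM elsewhere. Its border-associated macrophage markers summed to 1249 CPM against 134 to 498 CPM. F13a1 (500 CPM) and Pf4 (315 CPM) held most of the latter sum. Cd163, Mrc1 and Cd209f were highest in 2posI, and the other markers of that list in 3posI. The labels name all 7 libraries as microglia, and the part of the monocyte and macrophage markers in the lower values of 3posI was not tested. Without 3posI, all 9 log2 fold changes kept their sign, and 0 of 9 passed the threshold.

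**Figure D4:**
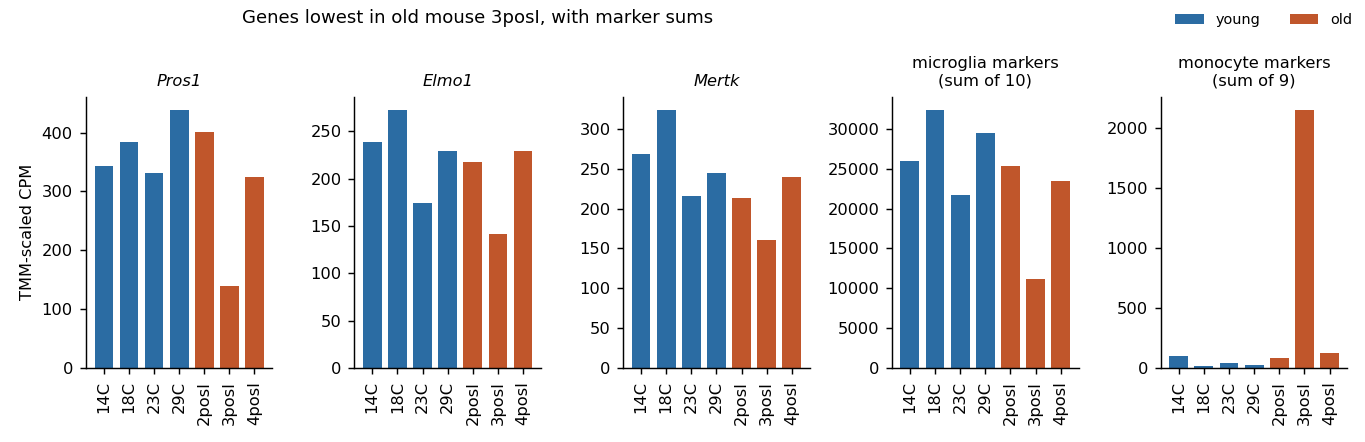
CPM of Pros1, Elmo1 and Mertk beside the summed CPM of 10 microglia and 9 monocyte markers, 1 bar per library, blue for young and orange for old mice, with a separate linear axis from 0 in each panel. In 3posI, Pros1 (140.2), Elmo1 (141), Mertk (161) and the microglia markers (11176) are at their lowest and the monocyte markers (2152) at their highest.

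The remaining marker lists were low or did not separate the ages. The microglia markers summed to 11176 to 25296 CPM in old and 21747 to 32406 CPM in young libraries. Neuron markers summed to at most 4.41 CPM, with 6 of 9 at 0 in some library, and T and NK cell markers to at most 10.9 CPM, with 6 of 8 at 0 in some library. Neutrophil markers summed to 17.0 to 168 CPM (Camp, Ltf and Ngp at 0 in some library) and oligodendrocyte markers to 122 to 168 CPM (Ermn and Mog at 0 in some library). Total expected counts were 36574083 to 53002386 per library.

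The genes whose pattern over the 7 libraries was nearest to Gas6, Pros1 and Elmo1, the 3 members with the highest TPM, were sought among 8146 genes with a mean of at least 10 CPM. Distance was the root mean square difference of centred log2 CPM. Nearest to Gas6 were Ak3 (0.084), Lima1 (0.087) and Ddb1 (0.126), where Gas6 itself moved by 0.33 about its own mean. Ak3 encodes an adenylate kinase of mitochondria, Lima1 an actin-binding protein and Ddb1 a DNA damage-binding protein. Among the nearest to Pros1 were Tom1l1 (0.105) and Klhl23 (0.108), where Pros1 moved by 0.51. Nearest to Elmo1 were Ptpro (0.040), Hnrnpul1 (0.058) and AC149090.1 (0.066), where Elmo1 moved by 0.29. These distances describe 7 libraries, and none of the 8 genes named here passed the age test.

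Around the 9 genes, 93 rows of partner genes in 7 lists by role were read from the same fit, of which 87 were tested. Few passed the test. None was higher and 2 were lower in old mice at an edgeR adjusted p under 0.05, against 0.655% and 0.313% of all tested genes. At an unadjusted p under 0.05 there were 15 higher and 13 lower genes, 28 of 87 in all against 18.9% of all tested genes. The ages did not overlap for 20 of 87, against 17.7%. The median log2 fold change was −0.05, where that over all tested genes was −0.01. DESeq2 called 11 of 87 and limma-voom 1 of 87, against 7.97% and 0.814% of all genes.

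Scarb1, a scavenger receptor that binds lipoproteins and phosphatidylserine, was lower in old mice (chromosome 5, 125277087 to 125341094). Young mice had 112 CPM in 14C, 104 in 18C, 129 in 23C and 131 in 29C. Old mice had 44.2 CPM in 2posI, 60.5 in 3posI and 45.4 in 4posI. The ages lay far apart, at 119 ± 13 CPM (SD, n = 4) against 50.04 ± 9.11 CPM (SD, n = 3). Scarb1 fell by 1.25 on the log2 scale (SE 0.16, edgeR adjusted p = 0.0189). It was also called in limma-voom (adjusted p = 0.0216) and DESeq2 (3.3e-09). It was past the threshold in 3 of the 7 fits that leave out 1 library (adjusted p from 0.0181 to 0.0933). Endothelial cells also use Scarb1. Of the 8 endothelial markers, 4 were lower in all old libraries and 4 overlapped. The sum of these markers was lower in all old libraries with Slc2a1 and overlapped without it. The part of endothelial cells in Scarb1 was not tested.

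Ggcx, the carboxylase that modifies Gas6 and protein S with vitamin K, was also lower in old mice (chromosome 6, 72414308 to 72430712). Young mice had 32.0 CPM in 14C, 32.8 in 18C, 32.6 in 23C and 38.7 in 29C. Old mice had 20.1 CPM in 2posI, 17.6 in 3posI and 23.0 in 4posI. The ages did not overlap, at 34.0 ± 3.14 CPM (SD, n = 4) against 20.2 ± 2.68 CPM (SD, n = 3). Ggcx fell by 0.75 on the log2 scale (SE 0.14, edgeR adjusted p = 0.0475). This call was at the edge of the threshold. It was lost in limma-voom (adjusted p = 0.0526), without the robust option (0.0535) and in all 7 fits that leave out 1 library (0.0556 to 0.147). It was kept in DESeq2 (adjusted p = 0.000188), which called 7.97% of all genes, and in edgeR with the effective length offset (0.0395).

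The other members of the list of shedding, vitamin K and regulators of TAM receptors did not pass the threshold. Its 14 tested genes were 7 higher and 7 lower in sign, with a median of 0.05. Socs3, a feedback inhibitor of cytokine signalling that acts downstream of TAM kinases, had 784.6 CPM in 14C, 737 in 18C, 598 in 23C and 569 in 29C. It had 171 CPM in 2posI, 293 in 3posI and 481 in 4posI, below every young library. The log2 fold change was −1.09 (SE 0.32, edgeR adjusted p = 0.132, DESeq2 adjusted p = 0.0134). Vkorc1, which recycles vitamin K for Ggcx, averaged 81.6 ± 10.8 CPM (SD, n = 4) in the young and 73.5 ± 25 CPM (SD, n = 3) in the old (log2 fold change −0.15, edgeR adjusted p = 0.764).

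Bridging proteins and soluble opsonins had a median log2 fold change of 0.61 over 9 tested genes, 6 of them positive. Without 3posI the median was 0.16, and 0 of 9 passed the threshold with or without it. The complement genes C1qb and C1qa were the most abundant of all partner genes, at 10290 and 9499 TPM on average. Their log2 fold changes were −0.07 (95% interval −0.52 to 0.38) for C1qb and −0.15 (−0.60 to 0.31) for C1qa. Among the 18 tested other receptors for dying cells, 1 was called, Scarb1, and the median was −0.11. Trem2, a lipid receptor of microglia, averaged 1449 ± 189 CPM (SD, n = 4) in the young and 1446 ± 335 CPM (SD, n = 3) in the old group, a log2 difference of 0.00 (95% interval −0.46 to 0.45). Its signalling partner Tyrobp differed by −0.05 (−0.43 to 0.34).

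Engulfment signalling and cytoskeleton, the list that holds the partners of Elmo1, had 19 tested genes with a median of 0.05, and 0 were called. Rac1, the GTPase switched on by Elmo1 and Dock proteins, differed by 0.05 on the log2 scale (95% interval −0.24 to 0.33). Rhog, which recruits Elmo1 to the membrane, differed by 0.08 (−0.32 to 0.47). In this list the ages did not overlap for 6 of 19 genes, against 17.7% of all tested genes, and the 6 went both ways. Named after their values were seen, Abca1, Dock2 and Dock5 had old above young, and Crkl, Plcg2 and Abca7 old below young. Phagosome maturation had 13 tested genes, a median of −0.12 and 0 calls. Of these, Rab7, the GTPase of late phagosomes, differed by 0.39 (−0.07 to 0.85), or 0.16 without 3posI, and Dnase2a, the lysosomal nuclease, by −0.11 (−0.36 to 0.14).

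Inhibitory signals against engulfment had 8 tested rows, with a median of 0.12 and 0 calls. Sirpa, the receptor for the signal CD47 that holds phagocytes back, averaged 1331 ± 120 CPM (SD, n = 4) in the young and 1057 ± 176 CPM (SD, n = 3) in the old group, without overlap (log2 fold change −0.33, edgeR adjusted p = 0.320). Ptpn6, the phosphatase it recruits, differed by 0.07 (95% interval −0.23 to 0.37). The symbol Lilrb4a stands on 2 rows of this list, whose split of reads is uncertain. Phosphatidylserine exposure had 6 tested genes, a median of −0.08 and 0 calls. Tmem30a, the subunit that flippases need, differed by −0.20 (−0.54 to 0.13), and the flippase gene Atp8a1 by −0.03 (−0.58 to 0.52). Rab7, Dnase2a, Ptpn6 and Atp8a1 had expected counts that were not whole in any library and Rac1 in 6 of 7, so their reads were shared with other genes and their values are uncertain.

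**Figure D5:**
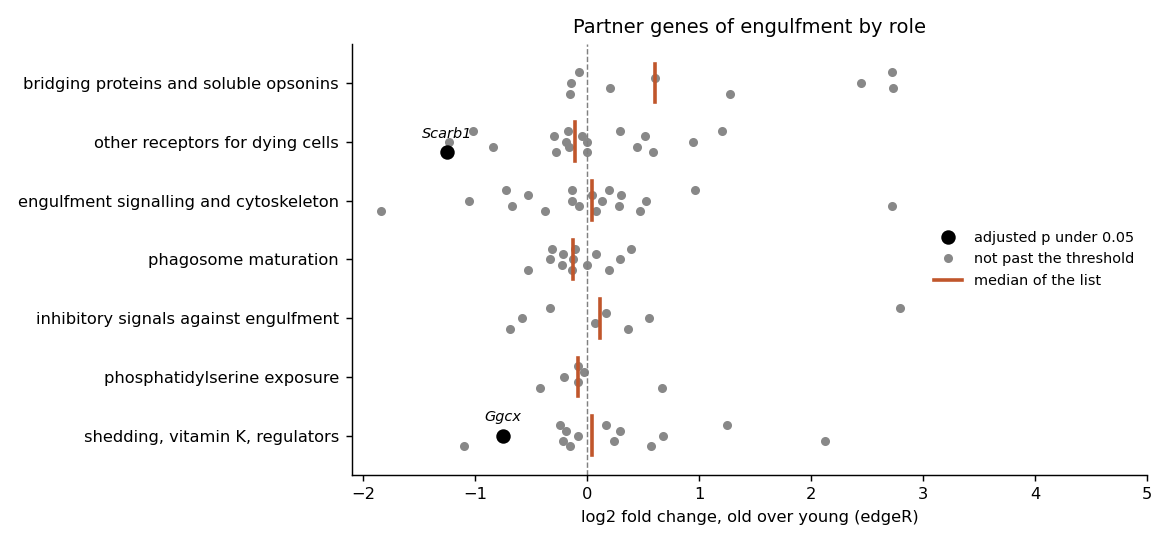
Log2 fold change of old over young (edgeR) for the 87 tested partner rows in 7 lists by role, with large black points past an adjusted p of 0.05, grey points for the rest and an orange line at the median of each list. Scarb1 (−1.25) and Ggcx (−0.75) are the 2 called genes, and list medians lie between −0.12 and 0.61.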

How the data were processed

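RNA was measured in Bodipy+ microglia of 4 young and 3 old mice from low-input, non-stranded Smart-seq2 libraries. Reads were checked by the authors with FastQC 0.11.5, trimmed with skewer and aligned to GRCm38 using STAR. RSEM, with GENCODE m15, then gave values per gene. The STAR and RSEM versions were not given in the sources used here. Deposited expected counts carried no normalization. The TPM values were scaled by the authors per effective length and per library. The effective lengths that the authors deposited served as an offset in 1 alternative. FPKM was not used.

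The counts were first rounded. As in the methods of the study, only autosomal genes with a value over 10 in 1 or more libraries were kept. Annotation came from GENCODE vM21, in which 310 of the 50686 identifiers were not found, and promoter windows from RefSeq, matched by symbol for 8 of the 9 genes. In R 4.3.3, edgeR 4.0.16 gave TMM factors and the quasi-likelihood test (robust fit, age as the only term), with Benjamini-Hochberg adjustment over 17559 genes and a threshold of 0.05. Alternatives were limma 3.58.1 (voom) and DESeq2 1.42.0, other scaling factors, other filters, X, Y and mitochondrial genes kept, the offset and each library left out. TPM was tested with limma on log2(TPM + 1) and with exact permutation over 35 splits, and ratios within libraries with the same exact test. Scripts were tested on simulated data. The texts name all 9 genes, called partner genes, the 2 partner genes of each list with the highest TPM, and 3 nearest genes for each of the 3 members with the highest TPM. Of these nearest genes, 1 is not reported here. For edgeR, SE and 95% intervals were derived from the log2 fold change and the F statistic of the quasi-likelihood test. They are symmetric and approximate. The rule for the members used symbols and no measured value. The members and all lists were still set with earlier results of these data known, and support no independent claim.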

Additional observations from a re-analysis of the deposited data

Results flagged for a closer look

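In the young group, 1 library stood far from the others in 3 of 38 screened values, where chance alone would give about 1.9. Each member was screened in both CPM and TPM, so the values were not independent. The Gas6 flags in CPM and TPM come from the same library, and no conclusion is drawn from 3 against 1.9. For Gas6 in CPM, 23C was at 823 and the other young mice at 507 to 538, and the gap was 0.904 of the whole range, above the critical value for 4 samples. For Gas6 in TPM, 23C was at 465 and the others at 281 to 299, a gap of 0.902 of the range. For Ggcx in CPM, 29C was at 38.7 and the others at 32.0 to 32.8, a gap of 0.871 of the range. Without 23C the old libraries were still below the young for Gas6, and for Ggcx they were below all young libraries, 29C included.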

How the results depend on the processing

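None of the 144 fits of the 9 genes under the 16 alternatives on counts passed the threshold or changed sign, and the lowest adjusted p was 0.116, for Gas6 in DESeq2. None of the 81 fits under 9 alternatives on the TPM scale passed it. The median log2 difference of all tested genes was −0.01 in counts, −0.07 in log2(TPM + 1) and −0.13 with a pseudocount of 0.1, and TPM values of the 9 genes are to be read against that shift. The number of calls over all 17559 genes, 170 in edgeR, was less stable. It was 1399 in DESeq2 and 336 without the filter on low counts, and between 1 and 179 when 1 library was left out (1 without 14C, 2 without 18C, 47 without 23C, 2 without 29C, 1 without 2posI, 179 without 3posI and 116 without 4posI). The cause was not tested. Of the 87 partner genes, 11 were called in DESeq2, 1 in limma-voom, 1 without the robust option (an alternative chosen after seeing the data), and 0 to 1 when a library was left out, against 2 in edgeR. Trem2 changed sign around 0, to 0.0035 in DESeq2, 0.0035 with RLE factors, 0.0050 with filterByExpr and 0.019 with the effective length offset. When 1 library was left out, the sign also changed for Axl in log2(TPM + 1) (−0.053 to 0.050), C1qb (−0.22 to 0.046), Trem2 (−0.11 to 0.18), Tyrobp (−0.16 to 0.023), Rhog (−0.076 to 0.21), Atp8a1 (−0.20 to 0.16), Vkorc1 (−0.37 to 0.10) and the log2 ratio of Gas6 to Pros1 (−0.41 to 0.24). The log2 ratio of Tyro3 to Mertk, −0.66 with all libraries, ranged from −1.30 without 4posI to 0.10 without 2posI. No paired analysis was possible because the labels give each library its own code and name no litter, batch or pairing. The codes differ in form between the ages. Whether the ages were processed in separate batches is not given, so a batch and age could not be told apart. The lowest 3 genes, Timd4, Tyro3 and Megf10, had counts of 1 to 66 per library. What kept any of the 9 genes from passing the threshold was not tested.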
